A study of Homo sapiens with 10 samples.

Results

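ZEB1 occupancy was described in untreated cells of a human breast cancer line alone, from 2 of the 10 libraries of the series. The labels call the line MDA_Parental and give it as negative for the estrogen, progesterone and HER2 receptors. No genotype, allele or time is given for the untreated cells, which grew in DMEM with serum. The other libraries are 2 IgG libraries of untreated cells, which were not analysed here, and 6 ZEB1 libraries of cells given eribulin, a microtubule inhibitor, at 300 nM. The treated libraries entered only through the set of intervals over which all counts were made. The assay was CUT&RUN, in which an antibody, here against ZEB1, guides a nuclease to the DNA a protein occupies and the released fragments are sequenced. The labels also speak of Tn5, an enzyme CUT&RUN does not use, and which step was meant is not given in the sources used here. Members were the 52981 consensus sites of the series, read in both untreated libraries. Of these, 45880 (86.6%, 95% interval 86.3 to 86.9%) shared a base with a peak of the untreated peak list and are called sites with an untreated peak. The other 7101 sites held peaks of treated cells only.

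ZEB1 is a zinc finger and homeodomain protein that binds E-box DNA and drives the epithelial-mesenchymal transition. It is best known as a repressor of epithelial genes such as CDH1, which encodes E-cadherin, where it recruits CTBP corepressors. It also represses the miR-200 microRNAs, which in turn target ZEB1 mRNA, and it can act as an activator together with YAP, TEAD and AP-1 factors. No treated cells were compared, so each value here is a level and none is a change.

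The sequences that the results turn on are given here first, from RefSeq on GRCh38.p14. The 6 promoter windows run from 250 bases before to 50 bases after a gene start, 5′ to 3′ on the strand of the gene. EVI5L (chr19:7829968-7830267, + strand), CCDC163 (chr1:45500024-45500323, − strand) and LCN2 (chr9:128149203-128149502, + strand) are the highest promoters by counts per kb, among those whose site is at least 200 bp wide, that hold an E-box form bound by ZEB1, with 1 promoter shown per site. Capitals mark the letters CAGGTG or CAGGTA on either strand.
EVI5L: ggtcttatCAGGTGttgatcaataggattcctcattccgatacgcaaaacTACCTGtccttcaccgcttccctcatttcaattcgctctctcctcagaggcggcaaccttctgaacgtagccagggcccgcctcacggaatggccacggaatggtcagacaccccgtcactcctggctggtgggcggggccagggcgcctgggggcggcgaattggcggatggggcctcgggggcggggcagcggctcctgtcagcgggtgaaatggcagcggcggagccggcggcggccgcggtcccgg
CCDC163: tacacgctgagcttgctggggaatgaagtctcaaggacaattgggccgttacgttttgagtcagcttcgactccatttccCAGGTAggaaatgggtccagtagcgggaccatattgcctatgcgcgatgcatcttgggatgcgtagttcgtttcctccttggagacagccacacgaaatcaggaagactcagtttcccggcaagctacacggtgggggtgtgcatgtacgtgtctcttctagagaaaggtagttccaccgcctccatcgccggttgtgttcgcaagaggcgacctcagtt
LCN2: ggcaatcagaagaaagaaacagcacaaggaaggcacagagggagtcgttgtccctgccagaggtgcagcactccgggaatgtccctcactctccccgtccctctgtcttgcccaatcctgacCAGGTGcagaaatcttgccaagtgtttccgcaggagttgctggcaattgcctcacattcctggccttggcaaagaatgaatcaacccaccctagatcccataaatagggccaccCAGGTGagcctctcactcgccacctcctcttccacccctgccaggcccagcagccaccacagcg

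The promoter with the highest counts per kb held neither form on either strand, and is shown in lower case for contrast. It belongs to LOC124905045, a long non-coding RNA (chr21:46184297-46184596, + strand), whose site also covers the start of SPATC1L. In this window 53.4% of bases matched the base 53 positions on, the mark of a tandem repeat, and in the overlapping SPATC1L window 86.2% did. Of all 34943 promoter windows, 1.13% reached a match of 50% at any shift from 20 to 150 bases.
LOC124905045: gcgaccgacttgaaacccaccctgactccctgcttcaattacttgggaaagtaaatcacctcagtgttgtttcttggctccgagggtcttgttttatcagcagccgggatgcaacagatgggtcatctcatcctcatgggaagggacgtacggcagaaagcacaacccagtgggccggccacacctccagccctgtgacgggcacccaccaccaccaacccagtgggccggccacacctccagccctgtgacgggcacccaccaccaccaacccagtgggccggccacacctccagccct

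KIAA1217 (chr10:24466281-24466580, + strand) and RTN4 (chr2:55051223-55051522, − strand) lead the promoters of under 50% GC that hold the AP-1 letters TGANTCA, marked in capitals. They stand for the promoter group in which a site and a motif went together most.
KIAA1217: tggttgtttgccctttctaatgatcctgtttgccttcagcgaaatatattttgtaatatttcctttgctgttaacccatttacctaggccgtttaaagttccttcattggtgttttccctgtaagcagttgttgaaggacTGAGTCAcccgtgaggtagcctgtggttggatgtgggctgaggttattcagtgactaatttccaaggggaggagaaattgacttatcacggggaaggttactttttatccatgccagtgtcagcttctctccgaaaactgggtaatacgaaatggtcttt
RTN4: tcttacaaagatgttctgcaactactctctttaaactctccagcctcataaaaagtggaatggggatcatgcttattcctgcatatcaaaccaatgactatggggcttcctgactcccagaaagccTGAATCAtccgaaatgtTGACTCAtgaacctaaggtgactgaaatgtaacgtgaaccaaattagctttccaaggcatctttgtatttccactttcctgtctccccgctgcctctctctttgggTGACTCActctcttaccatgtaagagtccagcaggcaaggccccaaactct

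Mature microRNAs near sites are given with the seed, bases 2 to 8, in capitals. MIR21 lay next to the second strongest site outside ribosomal DNA, and the miR-200 group are the classical ZEB1 targets. Among the latter, miR-200b-3p, miR-200c-3p and miR-429 share the seed AAUACUG, and miR-141-3p and miR-200a-3p share AACACUG.
hsa-miR-21-5p: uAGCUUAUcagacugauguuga
hsa-miR-200b-3p: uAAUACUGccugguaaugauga
hsa-miR-200c-3p: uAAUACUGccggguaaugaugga
hsa-miR-429: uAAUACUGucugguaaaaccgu
hsa-miR-141-3p: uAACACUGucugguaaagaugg
hsa-miR-200a-3p: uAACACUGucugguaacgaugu

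Counts in consensus sites summed to 3561455 in library 1 and 3146228 in library 2, with a median of 37 and 32 counts per site. The libraries differed by less than sampling noise: over the 47621 sites with 20 or more pooled counts, the chi-square statistic per degree of freedom was 0.830, where counting alone gives about 1. By an exact binomial test per site with Benjamini-Hochberg adjustment, 0 of the 47621 sites differed (0%), and 1352 sites (2.84%) had an unadjusted p under 0.05. The lowest unadjusted values of this test, from 7.3e-06 to 3.9e-05 (adjusted 0.346 to 0.468), were at strong ribosomal DNA sites described below. These sites all had higher scaled counts in library 2. Both libraries were therefore summed and counted as 1 sample, and nothing in the labels says whether they came from separate cultures. Levels are pooled counts scaled to 1000000 counts in consensus sites (CPM), with exact binomial 95% intervals that cover counting error only. Fold enrichment is the deposited value of the peak caller for the strongest untreated peak in a site, and the control library behind it, if any, is not given in the sources used here. Where 0 counts are seen, the pooled depth allows up to 0.447 CPM.

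Most sites were narrow and modest, and a small number held much of the signal. The median site was 229 bp wide with 69 pooled counts, or 10.3 CPM, and the quartiles lay at 5.37 and 21.5 CPM. Sites with an untreated peak had a median of 12.4 CPM, against 2.39 CPM for those without, and together held 97.8% of all counts. The peak list belongs to the same untreated condition, so higher counts at its sites follow from how the sites were chosen. The 530 sites that make up the strongest 1% held 11.7% of counts, and the strongest 10% held 42.4%. Wide sites gathered more counts: across the 45880 sites with a peak, Spearman's rho between CPM and width was 0.745, a description across sites that share the same libraries.

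The strongest sites were not at epithelial genes but in ribosomal DNA. The first 13 sites by CPM all lay in a block of chromosome 21 that holds 3 annotated 45S units, the tandem genes transcribed by RNA polymerase I into the precursor of 18S, 5.8S and 28S ribosomal RNA. The site with the highest level, chr21:8392674-8394531 over RNA18SN3, had 1785 CPM in library 1 and 1922 CPM in library 2, and 1849 CPM pooled (95% interval 1817 to 1882). The pooled interval, which covers counting error only, holds the value of neither library. The site over RNA18SN2 (chr21:8209654-8211490) had 1775 and 1911 CPM, and that over RNA18SN1 (chr21:8436982-8438743) had 1591 and 1733 CPM. All 3 copies of the 18S gene thus led the list in both libraries.

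The 3 annotated units shared a wide site at the start, a site over the 18S gene and sites over the 28S gene, and differed in others. The wide site at the unit's start had 1037 CPM in RNA45SN2, 1026 CPM in RNA45SN3 and 1328 CPM in RNA45SN1, the last one being 3247 bp wide and the widest of all consensus sites. Sites over the 28S genes ranged from 377 CPM (chr21:8441184-8441569, RNA28SN1) to 1413 CPM (chr21:8217509-8219055, RNA28SN2). Between these values lay 28S sites of 1317 CPM (chr21:8442402-8444038), 1249 CPM (chr21:8398249-8399803), 1240 CPM (chr21:8400523-8401689) and 1202 CPM (chr21:8215215-8216928). A site over a 5.8S gene was found in RNA45SN1 alone (198 CPM), and a site over MIR3648-1 in RNA45SN2 alone (154 CPM). Neither held an untreated peak, so both intervals come from peaks of treated cells. Between the annotated units, a further run at chr21:8243232-8260947 showed levels up to 1186 CPM over a stretch with no annotated 45S unit and MIR6724-2 as its named gene. In all, the 35 sites of the block were 0.0661% of sites and held 1.98% of counts.

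High counts in the block did not go with high enrichment. The 20 sites of the block that held a peak had folds from 2.27 to 5.41, with a median of 3.26, against a median of 9.16 over all sites with a peak. Ribosomal DNA is present in many copies in the genome and in few in the assembly. Copy number and read uniqueness were not measured, and their part in these levels was not tested. The authors' setting for reads that align to several places is not given in the sources used here.

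Other multicopy small RNA genes followed. U1 is the small nuclear RNA that recognises the start of introns, and all 4 RNU1 genes on chromosome 1 had a site: RNU1-1 with 385 CPM, RNU1-4 with 376 CPM, RNU1-3 with 360 CPM and RNU1-2 with 348 CPM. U2, its partner at the branch point, lies in a repeat on chromosome 17 where 13 of 14 annotated copies had a site within 1 kb, with up to 352 CPM (chr17:43245399-43246748, over LOC124904137). U3, which guides cleavage of the ribosomal RNA precursor, had a site at 5 of 5 SNORD3 genes, from 171 to 445 CPM. Some of these sites were shared: SNORD3B-1 and SNORD3B-2 had the same site (445 CPM), as did SNORD3A and SNORD3C (341 CPM). By contrast, none of the 17 annotated RNA5S genes, which encode 5S ribosomal RNA, had a site with a peak within 1 kb. Sites that touched a ribosomal, small nuclear, small nucleolar or transfer RNA gene, the chromosome 21 block included, made up 22 of the 50 and 28 of the 100 strongest sites, and 0.438% of all sites.

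**Figure D1:**
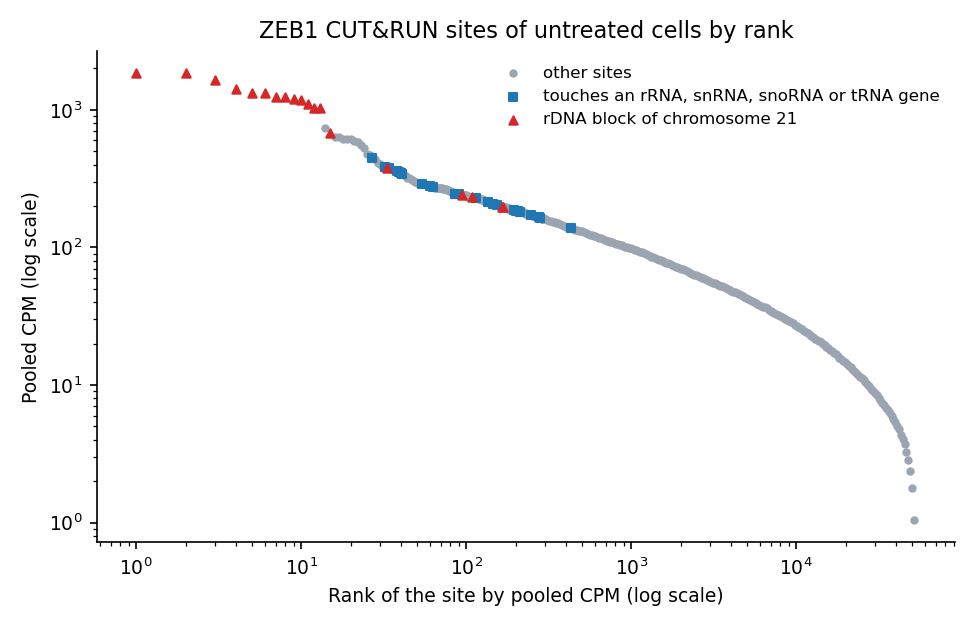
Pooled CPM of consensus sites against their rank, both axes on a log scale, with every site to rank 300 and a thinned selection beyond it; sites at 0 cannot be drawn. Red triangles are sites of the rDNA block, which fill the first 13 ranks from 1849 to 1026 CPM, and blue squares are other sites that touch small RNA genes.

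Most transfer RNA genes had no site nearby. Of 443 annotated transfer RNA genes, 197 (44.5%, 95% interval 39.8 to 49.2%) had a site within 1 kb, spread over 193 distinct sites on 17 chromosomes. Over genes of every biotype the share was 35.5%, and it was 67.3% for protein-coding genes, 35.1% for small nuclear RNA genes, 32.2% for long non-coding RNA genes and 13.1% for microRNA genes. Small nucleolar RNA genes reached 6.92%, and pseudogenes 4.44%. Transfer RNA genes have a median length of 73 bp and protein-coding genes of 24115 bp, so the shares stand for spans of very different length. The highest transfer RNA gene was TRU-TCA1-1, for selenocysteine, whose site (chr19:45478192-45479217, 188 CPM) also lies past the far end of FOSB. Similarly, the site next to TRI-TAT1-1 (136 CPM) lies past the far end of ZFP36.

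Outside the rDNA block the highest site, chr18:107700-109403, lay near the end of the short arm of chromosome 18 over LOC112268408. It had 708 CPM in library 1 and 764 CPM in library 2 (734 CPM pooled, 95% interval 714 to 755) and a fold of 13.1. The next 5 had 610 to 636 CPM pooled. They lay just past VMP1 (chr17:59842265-59844629), over PEG10, an imprinted gene derived from a retrotransposon (chr7:94657811-94658663), over LINC01348 (chr1:235067458-235068595), over DUX4, a subtelomeric repeat gene (chr4:190177608-190180006), and over the repeat at SPATC1L (chr21:46184432-46185209). EGR1, the immediate early zinc finger gene, followed with 604 CPM in library 1 and 581 CPM in library 2 (593 CPM pooled, 95% interval 575 to 612) at chr5:138469398-138471440, past its far end. MALAT1 and NEAT1, the abundant nuclear long non-coding RNAs, had sites of 586 CPM (chr11:65506782-65508288) and 527 CPM (chr11:65426704-65428802). Between them in rank, chr21:8987904-8988731 near MIR10396A and MIR3648-2, outside the block, had 559 CPM. The similarly named MIR10396B and MIR3648-1 lie in the block, and the 3p microRNAs of MIR10396A and MIR10396B share the seed GCCCCGG. This site was not counted with the block or with the small RNA gene sites above. Neither library was the higher throughout: library 1 was higher at DUX4, EGR1 and NEAT1 and library 2 at the others named here.

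Several of these strong and wide sites began where an annotated gene ends. The VMP1 site started 10 bp past the gene, and MIR21, whose microRNA is abundant in many carcinomas, ends 928 bp before it. It was 2365 bp wide with a fold of 4.16. The EGR1 site started 95 bp past the gene and was 2043 bp wide with a fold of 3.57. The MALAT1 site started 266 bp past the gene, within its antisense RNA TALAM1, and was 1507 bp wide with a fold of 6.86. All 3 therefore had folds below the median of 9.16 over all sites with a peak, despite CPM values among the highest.

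Rankings by enrichment and by counts named different sites. The 100 strongest sites by CPM shared 4 with the 100 highest by fold. The highest fold, 47.1, was in SLCO5A1, an organic anion transporter family gene, with 131 CPM, and the next was in HFM1, a meiotic helicase gene, with a fold of 42.6 and 285 CPM (chr1:91387241-91387546). PDE3A, a cyclic nucleotide phosphodiesterase gene, came next with a fold of 41.0 and 38.9 CPM. The site at SPATC1L, with 33.3, was the highest by fold among the 20 strongest sites by CPM. Spearman's rho with the fold was 0.686 for CPM and 0.539 for CPM per kb over the same 45880 sites.

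Scaling by width brought very short intervals to the top. The 10 highest sites by counts per kb were all 1 bp wide, with 1.19 to 2.98 pooled CPM, so this order rests on 8 to 20 counts a site. They lay in or near NTMT1, CXCL1, LOC340512, UBTF, LOC101926935, RUSC2, CHAT, LOC105374292, MYO10 and LOC105375610. In all, 31 sites were 1 bp wide and 41.8% were under 200 bp. Among sites of 200 bp or more, 9 of the 10 highest per kb lay in the rDNA block, led by RNA28SN3 (chr21:8400523-8401689) with 1062 CPM per kb, and the other was the HFM1 site with 932. Without the block the order was HFM1, SPATC1L with 784 CPM per kb, PEG10 with 742 and EVI5L, a RAB GTPase regulator gene, with 701. The strongest 100 by CPM shared 51 with the strongest 100 per kb among sites of 200 bp or more.

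Site centres were crowded at the ends of genes. Of sites with an untreated peak, 28.9% (95% interval 28.5 to 29.3%) had their centre within 1 kb of either end of a gene that encodes a protein, a microRNA or a long non-coding RNA, a class that takes up 4.51% of the covered genome. Gene bodies held 44.3% of sites on 49.8% of the genome, and intergenic DNA 26.8% on 45.7%. Sites near gene ends were wider, with a median of 367 bp against 223 bp in both other classes, and had a higher median level, 15.5 CPM against 11.5 in gene bodies and 11.2 in intergenic DNA. Per kb of width the order turned, with medians of 45.0 near gene ends, 52.2 in gene bodies and 51.4 CPM per kb between genes. Median fold was 9.80 near gene ends, 8.93 in gene bodies and 8.94 between genes, so the order of the classes depended on the measure.

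**Figure D2:**
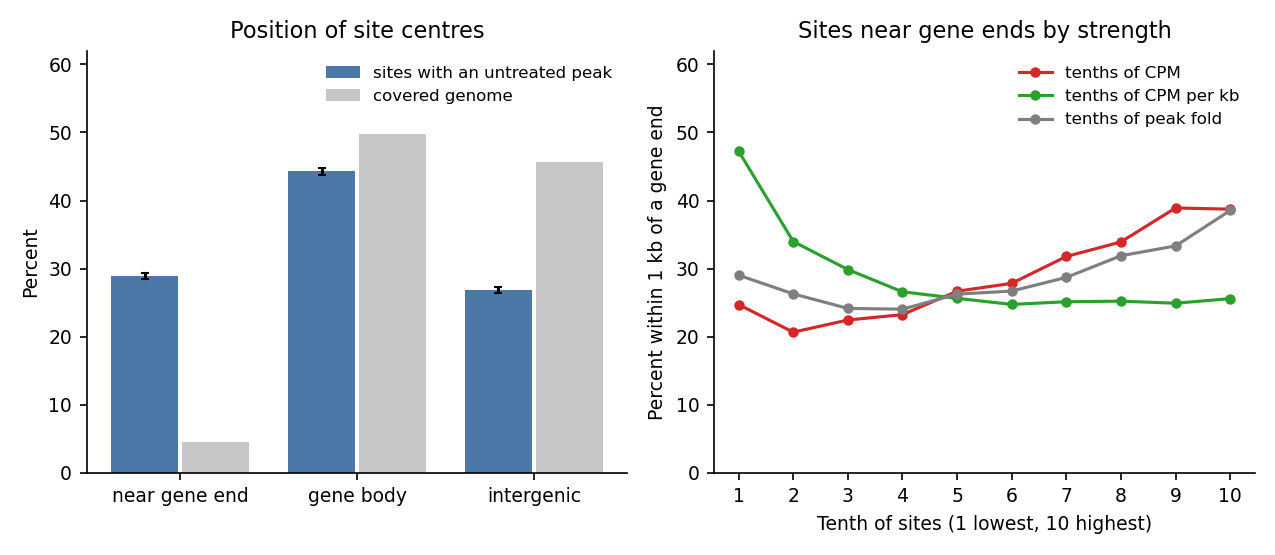
Left, percent of sites with an untreated peak (blue, with exact 95% intervals) and of the covered genome (grey) in each position class; right, percent of sites within 1 kb of a gene end in 10 equal groups of sites by CPM, CPM per kb and fold. The share near gene ends was 38.7% in the strongest 10% of sites by CPM and 24.7% in the weakest 10%, while by CPM per kb it went from 47.3% in the lowest group to 25.6% in the highest.

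The crowding was at the starts of genes and not at their far ends. Around 11573 protein-coding genes of at least 10 kb with a known strand, the 500 bp before the start held 343 sites per 1000 genes and the 500 bp after it 210.5. At a distance of 5 to 10 kb on either side, bins of 500 bp held between 9.25 and 16.7. At the far end, the last 500 bp of the gene held 9.16 sites per 1000 genes and the 500 bp beyond it 20.1, a level that stayed between 15.7 and 20.6 to 10 kb. Of these genes, 36.3% had a site centre within 1 kb before the start, and 3.86% within 1 kb past the far end. These shares do not cover all the strong sites past gene ends named above. EGR1, of 3825 bp, and MALAT1, a long non-coding RNA, are not among these genes. The centre of the VMP1 site lies 1192 bp past the gene, beyond the window of 1 kb. Among protein-coding genes under 10 kb with a site, 22.7% had their strongest site past the far end. Genes of chromosome 8 were not analysed here in results that need a gene start.

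**Figure D3:**
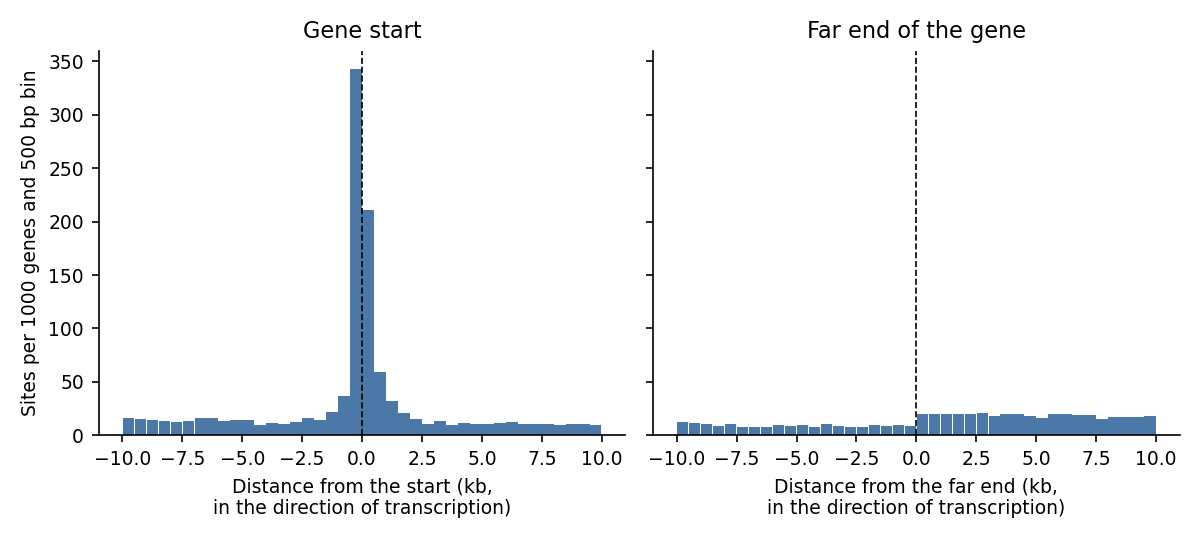
Sites with an untreated peak per 1000 protein-coding genes in 500 bp bins around the gene start (left) and the far end (right), over 11573 genes of at least 10 kb. The bins on both sides of the start reach 343 and 210.5, and the far end shows a step from 9.16 to 20.1.

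Across chromosomes, sites were densest where genes were. Chromosome 19 had 38.3 sites with a peak per Mb and chromosome 17 had 31.6, while chromosome 13 had 6.95 and chromosome X 6.46. Over the 22 autosomes, Spearman's rho between sites and protein-coding genes per Mb was 0.851, a description over chromosomes of the same libraries. Chromosome 21 had 14.7 sites per Mb and 753 CPM per Mb, the latter below chromosomes 19 and 17 alone, the rDNA block included.

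Of 34943 RefSeq promoter windows of 300 bases, 12270 (35.1%) shared a base with a site, and 12.1% were covered from end to end. The share was 45.2% for windows of protein-coding genes and 17.9% for those of long non-coding RNAs. Promoters with a site were richer in GC, with a median of 65.7% against 52.0% without, and in CpG, with a median ratio of observed to expected CpG of 0.851 against 0.317. Of promoters under 50% GC, 6.65% had a site, and of those from 60 to 70% GC, 55.3%. Among promoters with a site, those in the strongest 20% per kb had a lower median GC (63.0%) than those in the weakest 20% (69.7%).

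The promoter windows with the highest counts per kb belonged to LOC124905045 and SPATC1L, EVI5L, C2CD5, TESK2, TOMM40, DHX40, GET3 with 2 windows, and GOLPH3L. The sites at C2CD5 and DHX40 were 1 bp wide with 0.596 and 0.447 CPM, so these entries rest on a few counts. The others had 163 to 610 CPM. TESK2, a testis-associated kinase gene, had 407 CPM in library 1 and 420 CPM in library 2, and TOMM40, a mitochondrial import pore gene, had 403 and 409.7 CPM. EVI5L had 429 CPM in library 1 and 444 CPM in library 2, with a fold of 18.0, and LCN2, the gene of the iron carrier lipocalin 2, had 242 CPM in both. Of the 10 windows, 2 held an E-box form, EVI5L and DHX40, the latter with a site of 1 bp. Over all promoter windows the share with either form was 28.1%. Among the first 10 windows with a site of 200 bp or more, 3 held one, of which CCDC163 and MMACHC share a site.

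Taken over all GC bands together, the E-box letters of ZEB1 were not more frequent in promoters with a site than in those without. CAGGTG, on either strand, was in 19.2% (95% interval 18.5 to 19.9%) of promoters with a site, 21.4% (20.9 to 21.9%) of those without and 20.6% of all. CAGGTA was in 8.40%, 10.6% and 9.85%. Within promoters with a site, CAGGTG was in 18.1% of the weakest 20% per kb and 21.9% of the strongest 20%, and CAGGTA in 7.95% and 10.7%. In the strongest 10% per kb, CAGGTG was in 23.2% (95% interval 20.9 to 25.7%), beside the 20.6% of all promoters. Either form was in 32.1% (29.5 to 34.8%) of that group, beside 28.1% of all promoters and 25.6% of those with a site. Between 50 and 70% GC the difference for CAGGTG was wider, with 17.8% of promoters with a site and 27.7% without from 50 to 60% GC. From 60 to 70% the shares were 19.8% and 28.6%. At 70% GC or more, CAGGTG was in 20.2% with a site and 18.5% without. CAGGTA was in 9.80% with a site and 12.7% without under 50% GC, and in 10.1% and 11.6% from 50 to 60%. From 60 to 70% it was in 8.74% and 8.24%, and at 70% or more in 6.65% and 5.64%. These are letters in a fixed window of 300 bases and not in the sites themselves, whose sequences were not analysed here.

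The AP-1 letters TGANTCA showed the widest gap in the other direction, in a single band of composition. Under 50% GC they were in 28.6% (95% interval 25.3 to 32.0%; 204 of 714) of promoters with a site and 12.4% (11.8 to 13.1%; 1242 of 10016) of those without. From 50 to 60% GC the shares were 8.82% and 8.84%, and over all promoters, which mix the bands, 6.09% and 8.61%. The TEAD letters GGAATG were in 21.6% with a site and 18.6% without under 50% GC, with intervals that overlapped (18.6 to 24.8% and 17.9 to 19.4%), and in 10.99% and 15.7% over all promoters. KIAA1217, whose promoter holds TGANTCA once, had 51.4 CPM in library 1 and 51.2 CPM in library 2, and RTN4, which holds it 3 times, had 50.8 and 48.3 CPM. TGANTCA reads the same on both strands, each motif was searched on its own, and matches of different motifs can share bases at their ends.

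**Figure D4:**
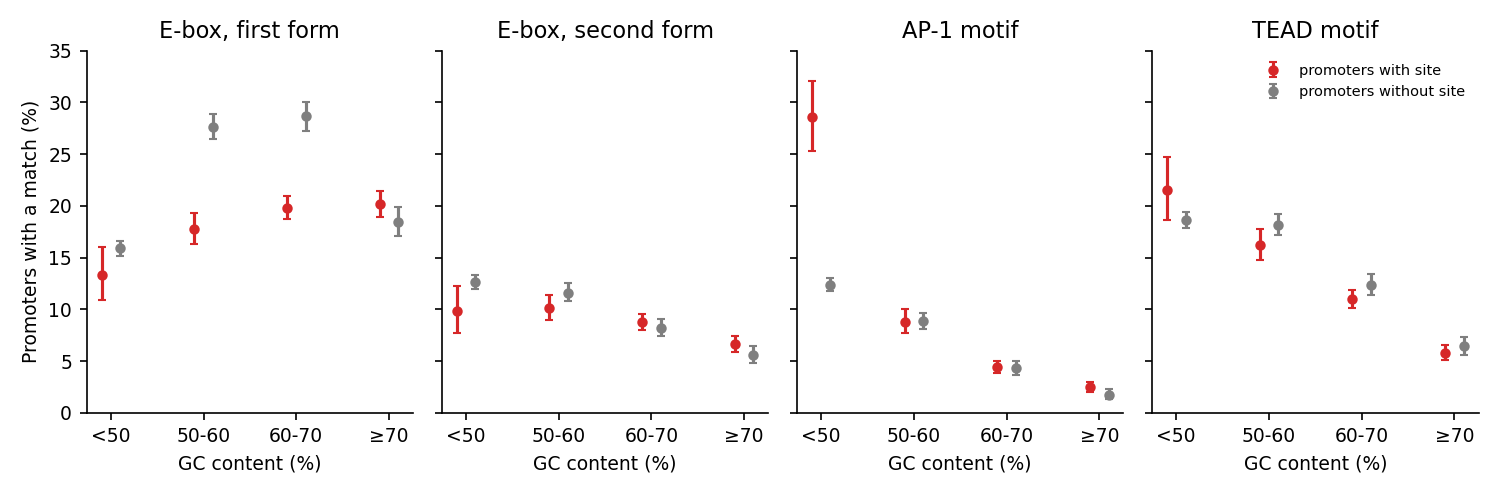
Percent of promoter windows that hold each motif on either strand, in bands of GC content, for promoters with a site (red) and without (grey), with exact 95% intervals. The AP-1 panel shows 28.6% against 12.4% under 50% GC and close pairs above it, and the panel of the first E-box form (CAGGTG) shows lower shares with a site from 50 to 70% GC.

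Genes with most sites were long. With 10 kb on both sides, HIVEP3, a zinc finger gene of 529570 bp, held 41 sites, RAD51B, a recombination repair gene, 35, LOC105370777 33, and ARHGAP26, a GTPase regulator gene, 32. IQCJ-SCHIP1, PVT1 and RANBP2 had 31 each, FRMD4A and PRKAG2 had 30, and AOPEP had 29. HIVEP3 had 7.46 sites per 100 kb of span, where chromosome 1 had 1.98, and RANBP2, annotated over 1122820 bp, had 2.71, where chromosome 2 had 1.39. Over protein-coding genes, 400 had 10 or more sites and 58 had 20 or more, and the 15089 genes with a site had a median of 2. Spearman's rho between the number of sites and gene length was 0.284 over 20037 protein-coding genes.

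PVT1 stood out by both number and level. This long non-coding gene next to MYC on chromosome 8 had 31 sites with 1904 summed CPM (1914 in library 1 and 1893 in library 2), more than any gene outside the rDNA block. VMP1 with 1439 summed CPM, RIPOR3 with 1372 and MICAL2, an actin oxidising enzyme gene, with 1353 came after it. Among genes with at least 5 sites, the densest spans were those of MIDN with 42.5 sites per 100 kb, LINC02736, next to MALAT1, with 42.5, and LOC105372236 with 40.4. Next came MIR6732 with 39.9, MIR612 with 39.8 and H4C2, a histone gene, with 39.2. MIR6732 is 60 bp long, MIR612 100 bp and H4C2 388 bp, so these spans are nearly all flank. DUSP1, a MAP kinase phosphatase gene, had 39.0, and MYEOV, a gene of the CCND1 region, had 38.9.

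Sites came in runs. Joined where the gap was at most 10 kb, the 45880 sites formed 28183 groups, of which 18522 were single sites. The 938 runs of 5 or more sites held 13.3% of sites and 20.96% of counts, both over sites with a peak, and 79 runs had 10 or more. The longest run by number, chr4:49091296-49155027, held 34 sites and 3430 summed CPM beside the centromere of chromosome 4, with no protein-coding gene in it and CWH43 29217 bp away. The median fold of its sites was 5.88. MYH9, the gene of non-muscle myosin heavy chain, held the longest run at a gene, with 28 sites over 117 kb and 1249.9 summed CPM. A run of 18 sites at chr13:112277309-112309742 had folds of at most 3.90 and 285 summed CPM, and lay 66613 bp from SPACA7.

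Runs of 14 to 16 sites lay at several named genes. PRKCH, a protein kinase C gene, had 16 sites with 744 summed CPM, and EPHA2, an ephrin receptor gene, 15 with 806. FOSL1, the AP-1 gene, lay in a run of 15 sites with 848 summed CPM, MALAT1 in one of 15 with 1344, and the U2 repeat in one of 15 with 1888. MIDN and CIRBP shared 15 sites with 367 summed CPM, and MYEOV had 14 with 1518. A histone gene cluster on chromosome 6, from H3C1 to H1-2, had 14 sites with 349 summed CPM. By summed CPM the first 4 runs were those of the rDNA block, with 3665 to 5509.8, followed by the chromosome 4 run, the U2 repeat and MYEOV. LINC01348 with 1445, BHLHE40, a repressor gene of the circadian and stress response, with 1389.8 from 12 sites, and MALAT1 completed the first 10.

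For the gene lists, sites inside a gene or within 5 kb were summed, and 72.1% of 20037 protein-coding genes had at least 1, with a median summed level of 18.5 CPM. The share depended on length, from 46.9% of genes under 5 kb to 83.4% of those from 50 to 100 kb. The 11 lists were read as counts and medians beside these values, with no test. The levels depended on how sites were linked to genes: with each site given to the nearest gene end within 10 kb, the median of all protein-coding genes was 8.80 CPM, and every list median above 0 was lower too, except that of immediate early genes.

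Epithelial adhesion and polarity genes, the classical targets of ZEB1, were widely covered, but so were other lists. Of 44, with a median length of 28.3 kb, 40 had a site (90.9%, exact interval 78.3 to 97.5%). Of all protein-coding genes of 20 to 50 kb, 80.8% had one, a value inside that interval. Mesenchymal effectors had a site at 31 of 34. Across lists the share ran from 10 of 26 for genes of other lineages to 18 of 18 for housekeeping genes. The epithelial list median was 80.2 CPM, or 36.7 CPM with sites given to the nearest gene end within 10 kb. KRT8, an epithelial keratin gene, had 621 CPM in library 1 and 603 CPM in library 2 summed over 9 sites, and PARD6B, of the apical polarity complex, 573 and 584 CPM over 5. SCNN1A, an epithelial sodium channel gene, had 264 CPM and CGN, the tight junction gene of cingulin, 206. MARVELD3, DSC2, RAB25 and MAL2 had no site.

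CDH1 itself had a moderate level. Its 6 sites summed to 80.0 CPM in library 1 and 81.4 CPM in library 2, close to the list median, and its strongest site, chr16:68741850-68742072, had 24.6 CPM (95% interval 20.99 to 28.7) with a fold of 18.0 inside the gene. KRT18 had 158 CPM over 4 sites. It overlaps KRT8, and its strongest site (chr12:52949765-52950087, 72.2 CPM) also counts towards the sum of KRT8, so these sums are not separate. EPCAM, an epithelial surface antigen gene, had 20.8 CPM in library 1 and 19.1 CPM in library 2 at 1 site. The strongest sites of CDH1 and EPCAM lay below those of PARD6B (chr20:50730664-50731843, 473 CPM, at the start), KRT8 (138 CPM) and CGN (133 CPM).

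Of 24 epithelial regulators, 20 had a site, and the list median was 12.2 CPM. This value came from 6 microRNA genes of the list, which shared 3 sites: over the 18 protein-coding members, of which 14 had a site, the median was 38.2 CPM, above the 18.5 CPM of all protein-coding genes. ELF3, an epithelial ETS factor gene, had 151.5 CPM with its strongest site (chr1:202009666-202010797, 122 CPM) at its start. TFAP2A had 135 CPM, EHF 124 CPM and GRHL3, a factor of the epithelial barrier, 84.7 CPM. ESRP1, the epithelial splicing regulator gene, OVOL1, OVOL2 and FOXA1 had no site.

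The miR-200 loci had weak sites near the microRNA genes. One site, chr1:1164734-1165103, lay 2001 bp before MIR200B and was shared by MIR200B, MIR200A and MIR429, with 12.9 CPM in library 1 and 11.4 CPM in library 2 (12.2 CPM pooled, 95% interval 9.72 to 15.2) and a fold of 8.53. MIR200C and MIR141 shared a site 1473 bp before MIR200C, chr12:6962158-6962226, with 5.05 and 3.81 CPM and a fold of 7.68. MIR205 had a site 3585 bp away with 5.52 CPM. All 3 sites held an untreated peak, and the site next to MIR21 had 636 CPM.

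Mesenchymal genes were covered about as often. Of 34 effectors, 31 had a site and the median was 46.4 CPM, while COL3A1, TAGLN and MMP1 had none. ITGB3, an integrin gene, had 270.1 CPM in library 1 and 270.2 CPM in library 2 over 7 sites, AXL, a receptor kinase gene, 211 CPM pooled and PLAU 134. VIM had 88.4 CPM over 5 sites with the strongest 292 bp past its start, CDH2 50.1 CPM and FN1 27.9. These textbook markers thus lay on both sides of the list median.

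ZEB1 had a site at its own start. This site, chr10:31318227-31319092, had 73.6 CPM in library 1 and 68.3 CPM in library 2 (71.1 CPM pooled, 95% interval 64.9 to 77.8), a fold of 9.66 and a centre 242 bp past the gene's start. Its 3 sites summed to 120.5 CPM. Among 18 transcription factors of the epithelial-mesenchymal transition, 15 had a site, with RUNX1 at 537 CPM over 17 sites and ETS1 at 529 CPM over 12 as the highest and RUNX2 at 111. SNAI1 had 41.1 CPM and ZEB2 9.24, and TWIST1, PRRX1 and TCF4 had none.

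AP-1 family genes had a median of 169.8 CPM, the highest of the lists with this link, and 14 of 14 had a site. With sites given to the nearest gene end, immediate early genes were the highest, at 130.5 CPM against 92.4 for AP-1 within 10 kb and 203 against 150.4 within 100 kb. FOS had 619 CPM in library 1 and 617 CPM in library 2, FOSL1 490 and 513 CPM, FOSB 473 and 497 CPM, and JUN 349 and 343 CPM. Immediate early genes, which are induced by growth signals, had a site at 26 of 26 and a median of 115 CPM, although their median length was 5.21 kb. EGR1 led with 898 and 867 CPM, followed by DUSP1 with 758 and 768 CPM, ZFP36, an mRNA decay factor gene, with 419 CPM pooled, and IER3 with 383.

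The place of the strongest site differed between members. Among AP-1 genes with a known strand and a site, the strongest site lay past the far end in 5 of 11 (45.5%, 95% interval 16.7 to 76.6%): FOS, FOSB, JUND, JUNB and MAFF. Among immediate early genes it was 6 of 17 (35.3%, 14.2 to 61.7%): EGR1, DUSP1, IER2, ZFP36, NR4A1 and KLF2. As many immediate early genes, 6 of 17, had it before the start, at a median of 39.4 CPM against 139 CPM past the far end: KLF6, DUSP6, IER5, NR4A3, EGR4 and DUSP2. Of all protein-coding genes with a known strand and a site, 11.3% had it past the far end and 6.48% before the start. Among those under 10 kb, 22.7% had it past the far end, 11.8% before the start and 57.1% within 1 kb of the start. Both lists mix genes under and over 10 kb. Their far-end intervals include the far-end value of short genes and lie above that of all genes. The before-start interval of immediate early genes (14.2 to 61.7%) lies above both before-start values. No test was made of these shares. FOS had its strongest site 1682 bp past the far end with 303 CPM, and DUSP1 2511 bp past it with 310 CPM. JUN had 163 CPM at its start, and BHLHE40 had 271 CPM 627 bp before its start.

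YAP and TEAD genes had a median of 116 CPM, and 25 of 26 had a site, AMOT being the exception. MYOF had 347 CPM, CRIM1 294, TEAD1 260.1 and TEAD3 259, with the strongest MYOF and TEAD1 sites inside the genes. Genes of the TGF-beta pathway had a site at 21 of 22, all but TGFB3, with a median of 51.2 CPM. BHLHE40 had 652 CPM in library 1 and 682 CPM in library 2, SMAD3, a signal transducer gene, 456 and 418 CPM over 18 sites, LTBP2, a gene of the extracellular matrix, 429.5 CPM pooled and PMEPA1 363.

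ZEB1 corepressors and cofactors had a site at 15 of 15, at a median of 35.03 CPM. CTBP2 had 154 CPM in library 1 and 146 CPM in library 2, SMARCA4, the ATPase of the SWI/SNF complex, 89.2 and NCOR1 76.0. Housekeeping genes had a site at 18 of 18 and a median of 62.1 CPM. EEF1A1, a translation elongation factor gene, had 149 CPM and SDHA, of the mitochondrial respiratory chain, 134. The housekeeping median, too, lay above the 18.5 CPM of all protein-coding genes.

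Genes of other lineages were covered least. Of 26, 10 had a site (38.5%, 95% interval 20.2 to 59.4%) and the median was 0. MBP, the myelin basic protein gene, was far above the rest with 526 CPM over 17 sites in or near a gene of 155 kb, and PECAM1 had 227 CPM, CDH5 116 and SYT1 88.0. Occupancy does not measure expression, so no marker check of the cell line was made.

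**Figure D5:**
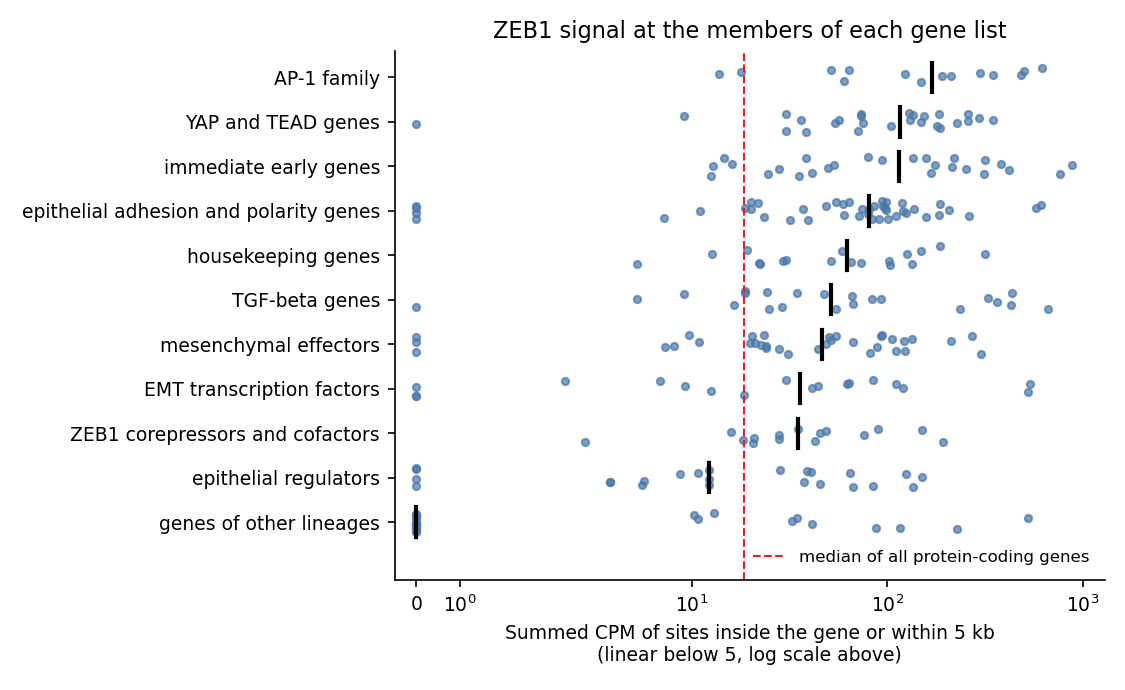
Summed CPM of sites inside each gene or within 5 kb for the members of 11 gene lists, on an axis that is linear below 5 and logarithmic above, with a black bar at the list median and a dashed line at 18.5 CPM, the median of all protein-coding genes. With this link AP-1 genes have the highest median (169.8 CPM; with sites given to the nearest gene end, immediate early genes do), and genes of other lineages the lowest, with 16 of 26 at 0.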

How the data were processed

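ZEB1 CUT&RUN libraries of untreated cells were analysed from the counts per consensus site that the authors deposited, as raw whole numbers. The unit behind a count, read or fragment, is not given in the sources used here. Peaks came as 1 list per condition, with fold enrichment and the −log10 q-value as the authors' peak caller wrote them; peak names in the untreated list carry replicate 1. The submitters' processing notes list MACS2 2.1.1 and Bowtie2 2.2.6 among the tools, with featureCounts, bedtools 2.30.0, cutadapt 2.4, Picard, deepTools and bcl2fastq 2.20.0.422 besides. They give the build as hg38 and no settings. The consensus sites equalled the merged union of the 4 peak lists on chromosomes 1 to 22, X and Y.

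The 2 libraries were compared by a chi-square statistic and exact binomial tests over sites with 20 or more counts, then summed, giving 1 sample; with 1 condition there was no other test. The p-values measure only the spread between these libraries, which may be technical. Their totals of 3561455 and 3146228 counts set the precision. Intervals were exact (Clopper-Pearson). Computation used Python 3.11.15, numpy 2.4.6, pandas 2.3.3, scipy 1.17.1 and, for scaling factors, edgeR 4.0.16 in R 4.3.3. The comparison of the libraries was tested on simulated counts, and the overlap of intervals on a small made-up example. The other steps were not tested in this way.

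Genes and promoter windows came from RefSeq GRCh38.p14, whose table lacks the strand of some genes. The text names the first 10 sites by CPM and per kb, the first 10 genes by number of sites, the first 10 clusters by number and by summed CPM, the first 10 promoters, the first 4 members of each list, epithelial members without a site, and epithelial and mesenchymal markers. Sites and genes named from other rankings, the sites past gene ends, other list members and the KIAA1217 and RTN4 promoters were chosen after their values were seen. Promoter sequences were taken from sites of 200 bp or more, since sites of 1 bp led the planned ranking. All 267 symbols of the 11 gene lists matched. Members and lists were chosen with earlier results of these data known. IgG libraries, chromosome 8 gene starts and site sequences were not analysed here. A few list members that the rule names are not reported here. Alternatives covered the site set, windows, gaps, width and leaving out a library.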

Additional observations from a re-analysis of the deposited data

Results flagged for a closer look

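The untreated peak list held 333 peaks outside chromosomes 1 to 22, X and Y, which the count table does not cover, so no count stands behind them. Their median fold enrichment was 5.99 and the highest 61.1, above the highest fold of 47.1 among the counted sites. They drew attention because they are signal in data that no comparison above used, and what lies under them was not tested.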

How the results depend on the processing

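No paired analysis was possible because only 1 group was used and its 2 libraries were compared with each other. Depth limited the weak sites: a site with 0 counts could hold up to 0.447 CPM, and unspecific signal was not measured, since the IgG libraries were not used. Of the first 10 sites by CPM, 0 were among the first 10 without the rDNA block and 0 without sites touching small RNA genes, by construction; these sets were added after the data were seen. Of the first 10 per kb, 0 remained among sites of 200 bp or more, 0 with the rDNA block left out as well and 0 by fold, while leaving out a library kept 8 to 9. The strongest 1% held 11.03% of counts among sites with a peak, 10.2% without the rDNA block, and 11.6 to 11.9% with either library left out. The share of sites with a peak was 85.1% where at least 50% of the site had to be covered and 78.6% for peaks of 5-fold or more. The share near gene ends was 40.04% within 3 kb, 23.3% for protein-coding genes alone, 27.6% over all consensus sites and 33.7% weighted by counts (33.7 to 33.8% with either library left out). Of the first 10 genes by sites, 6 stayed with all consensus sites, 0 per 100 kb and 1 by summed CPM. Runs of 5 or more sites numbered 180 at a gap of 5 kb and 2372 at 25 kb. Promoters with a site were 12.1% where the whole window had to be covered and 36.5% over all consensus sites. CAGGTG was in 23.2% of the strongest 10% of promoters with a site. The cause of these shifts was not tested beyond the change of set or window itself. With sites given to the nearest gene end within 10 kb and 100 kb, list medians were 36.7 and 71.6 CPM for epithelial adhesion (83.4 over all consensus sites), 7.08 and 35.7 for epithelial regulators (38.2 for protein-coding members alone, a set added after the data were seen), 92.4 and 150.4 for AP-1, and 130.5 and 203 for immediate early genes. The chi-square statistic (0.830 to 0.838) and the count of epithelial adhesion genes with a site (38 to 41) moved little. With either library left out, the median of that list was 77.9 to 82.0 CPM.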
